A study of Mus musculus with 12 samples.

Results

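The 80 genes for cytosolic ribosomal proteins, the protein parts of the ribosomes that translate nuclear-encoded mRNA, were followed across 4 groups of mouse melanoma libraries. They were every row of the count table whose Ensembl identifier carried a symbol of the form Rpl or Rps with a number and an optional letter a, l or x, or Rpsa, Rplp0, Rplp1 or Rplp2. Of the 56093 rows, 83 met that form, and Rps4l, Rpl6l and Rpl32l were left out because the annotation gives them as processed pseudogenes. That left 49 genes of the large subunit and 31 of the small subunit. A filter on low counts passed 76 of them, 45 large and 31 small, and the comparisons concern those 76. The 4 that did not pass were all of the large subunit. The testis-type or tissue-restricted paralogs Rpl10l and Rpl39l had 0 counts in all 12 libraries, which allows up to 0.139 to 0.209 CPM, the count scaled to library size, depending on the library (3 counts, counting error only). Rpl3l, the paralog known from striated muscle, had 8 counts over all libraries. Rpl24, which is not such a paralog, had 67, with 207 at its pseudogene copies, and the reason for so few was not tested.

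The cells were B16, a mouse melanoma line, grown in DMEM with serum and antibiotics in every group. In 2 groups they carried a short hairpin RNA against Sdc1, which encodes the heparan sulfate proteoglycan syndecan-1, and in the other 2 a hairpin against RFP as the control. The 4 groups, of 3 libraries each, were shSdc1 cells given IFNγ at 10 ng/ml for 24 h, shRFP cells given the same, untreated shSdc1 cells and untreated shRFP cells. IFNγ is the cytokine through which T cells and NK cells induce antigen presentation in tumour cells. The number of hairpins, and whether cells were clones or pools, is not given in the sources used here. Knockdown of Sdc1 and any other action of the hairpin therefore cannot be told apart. Nothing in the labels ties the 3 libraries of a group to separate cultures, and p-values then measure the spread between these samples alone, which may be technical. RNA came from whole cultures, so fewer cells of one state and less RNA per cell cannot be told apart.

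A ribosome is built from ribosomal RNA and one copy of most ribosomal proteins, so a cell has to make these proteins in matched amounts. Their genes are among the most strongly expressed of any growing cell, and their mRNAs start with a run of pyrimidines, the terminal oligopyrimidine (TOP) tract. Through that tract the kinase mTOR and the RNA-binding protein LARP1 control how many of these mRNAs are translated and how many are kept as a stable store. Transcription factor MYC raises the output of the whole system, and free RPL5 and RPL11 bind MDM2 when ribosome assembly fails.

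RefSeq promoter sequences (GRCm38.p6, 250 bases before to 50 after each listed start site) were matched by symbol to 60 of the 80 genes. A run of at least 8 pyrimidines on the transcript strand, starting between 20 bases before and 30 bases after the listed start, was present for 39 of the 60 genes. Counted over promoters, it was in 56.9% of the 72 listed for these genes and in 19.6% of all 32851 promoters of the same length. It was in 11.5% of the 52 promoters of nuclear genes for respiratory chain subunits. The windows of 30 bases below are shown because they hold that run, in capitals, for genes named in the results. The first 6 genes were lower in shSdc1 cells with IFNγ than in shRFP cells with IFNγ, and the last 2, Rps10 and Rps2, were not called.
Rps27 (chr3:90213629-90213658, minus strand): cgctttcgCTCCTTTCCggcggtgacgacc
Rpl37a (chr1:72711275-72711304, plus strand): gcattgcgTCCCTTCCTCTTCggacttggg
Rpl38 (chr11:114668570-114668599, plus strand): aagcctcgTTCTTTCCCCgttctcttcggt
Rpl39 (chrX:37085195-37085224, minus strand): tctagcgaCTTCTTCTaatcgcgttcttcc
Rpl11 (chr4:136053359-136053388, minus strand): gccggaagTCTCCCTCTCTCTTCCTgttct
Rps6 (chr4:86857347-86857376, minus strand): aagtcgggCCTCTTTTTCgtgacgcctccc
Rps10 (chr17:27635226-27635255, minus strand): cgcgcacgCCCCTTCCTTTCCagcctccgc
Rps2 (chr17:24720081-24720110, plus strand): ataaattgTCCCTTCCgcggcgcctccctc
Such a run near the listed start need not be the TOP tract, since those of Rpl37a and Rps2 begin 24 and 27 bases after it. The run was present in 35 of the 51 genes with a promoter that were lower in that comparison, and in 4 of the 5 that were tested and not called. Of other motifs, CCGGAAG, the core that ETS factors bind, was in 36.1% of the promoters of ribosomal protein genes and in 8.86% of all promoters on either strand. The reverse complement of that motif can overlap a pyrimidine run. AAGATGG, the core bound by YY1, was in 15.3% of the promoters of ribosomal protein genes and in 6.34% of all.

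The libraries held 14337771 to 21548940 counts. Sdc1, the targeted gene, was lower in shSdc1 cells by log2 fold changes of -1.77 ± 0.08 with IFNγ (SE, edgeR adjusted p = 6.5e-12) and -1.67 ± 0.08 without it (edgeR adjusted p = 2.5e-11). All 10 melanocyte markers were tested, and their summed level was 19875 to 21504 CPM in shSdc1 cells with IFNγ, 26945 to 29232 CPM in shRFP cells with IFNγ, 20568 to 21092 CPM in untreated shSdc1 cells and 25999 to 26325 CPM in untreated shRFP cells. Of 16 leukocyte markers 3 were tested and 6, among them Cd3e, Cd8a and Adgre1, were at 0 counts in every library. The leukocyte sum was 16.01 to 17.6 CPM in shSdc1 cells with IFNγ, 6.79 to 9.16 CPM in shRFP cells with IFNγ, 8.57 to 9.32 CPM in untreated shSdc1 cells and 3.18 to 3.44 CPM in untreated shRFP cells. Of 10 fibroblast, endothelial and keratinocyte markers 3 were tested, with sums of 13.6 to 18.6 CPM. The part of these markers in the results below was not tested. One library stood apart: shSdc1 replicate 3 had 4.79% of its counts at a single Ensembl identifier without a symbol, ENSMUSG00000119584, against at most 0.195% in the other 11 libraries. With that identifier and loci without a gene left out of the total, its share on ribosomal protein genes, given next, was 3.72% in place of 3.52%.

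The ribosomal protein genes held the smallest share of the library in shSdc1 cells with IFNγ. Replicates 1 to 3 had 3.28, 3.18 and 3.13% of counts on the 80 genes in shSdc1 cells with IFNγ, against 3.64, 3.79 and 3.66% in shRFP cells with IFNγ. Without IFNγ the shares were 3.77, 3.65 and 3.52% in shSdc1 cells, against 3.70, 3.68 and 3.86% in shRFP cells. The 3 libraries of shSdc1 cells with IFNγ lay below all 9 others, and the other 3 groups overlapped one another. The ratio of group means was 0.865 for shSdc1 over shRFP cells with IFNγ and 0.973 without it. The share was 0.877 times as large with IFNγ as without it in shSdc1 cells, and 0.986 times in shRFP cells.

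**Figure D1:**
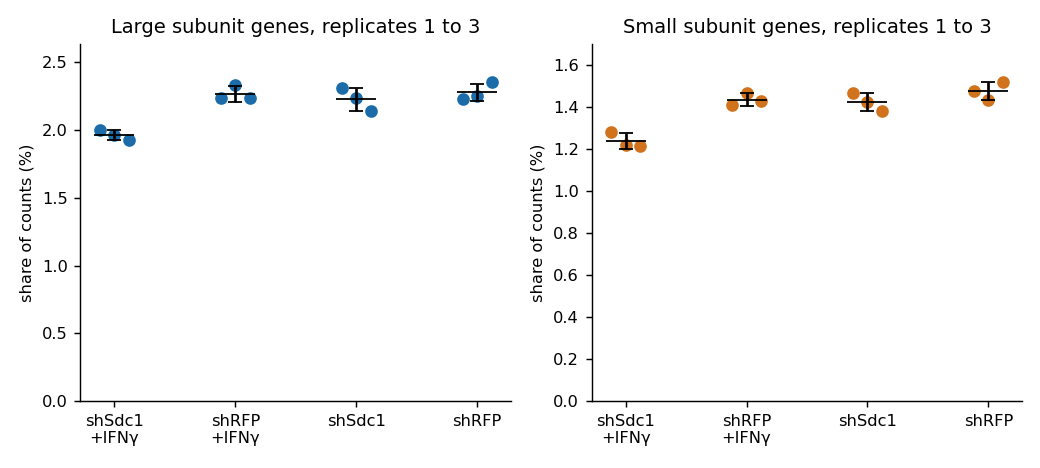
Share of all counts, in percent, that fell on genes of the large subunit (left) and of the small subunit (right) in each of 3 libraries per group; the black bar is the mean and the whisker the SD. In both panels the 3 libraries of shSdc1 cells with IFNγ lie below the 9 others.

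The 2 subunits kept a like ratio. The large subunit took 1.96 ± 0.04% of counts in shSdc1 cells with IFNγ and 2.26 ± 0.06% in shRFP cells with IFNγ (mean ± SD, n = 3), and the small subunit took 1.24 ± 0.04% in shSdc1 cells with IFNγ and 1.43 ± 0.03% in shRFP cells with IFNγ. The ratio of large to small subunit counts was 1.59 ± 0.02 in shSdc1 cells with IFNγ, 1.58 ± 0.01 in shRFP cells with IFNγ, 1.56 ± 0.01 in untreated shSdc1 cells and 1.54 ± 0.03 in untreated shRFP cells. The ranges of all 4 groups overlapped.

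Single genes differed widely in level. Per kilobase of transcript and averaged over the 12 libraries, the 76 genes stood at 9.35 to 2365 CPM, with a median of 505 CPM per kb, against 12.4 CPM per kb for the median of all tested genes with a length. Rplp1, which encodes an acidic protein of the ribosomal stalk, was highest, followed by Rpl8 at 1590 CPM per kb, the stalk base protein gene Rplp0 at 1398 CPM per kb and Rpl41, the smallest ribosomal protein, at 1338 CPM per kb. The lowest were Rpl13a at 9.35, Rps10 at 10.9, Rpl23a at 21.4, Rpl35 at 23.6, Rpl21 at 40.7 and Rpl30 at 52.8 CPM per kb. The proteins themselves are known to be present in about equal number.

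Processed pseudogenes of these genes are common. By sequence match, 70 of the 80 genes had at least 1 pseudogene with 95% identity or more over at least 80% of the coding sequence, 529 copies in all. For 11 genes more than 20% of the counts of the gene and its copies fell on the copies. The shares were 96.3% for Rps10, 93.5% for Rpl23a, 75.55% for Rpl24, which was not tested, 66.5% for Rpl21, 63.8% for Rpl17 and 62.7% for Rpl30. Rpl13a, lowest of all, had 5.49% of its counts at copies. How reads that match several places were counted is not given in the sources used here, and their part in the low values was not tested. Of the 10 tested genes with more than 20% of counts at copies, 6 were lower in shSdc1 than in shRFP cells with IFNγ, and of the 66 others 59 were.

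The spread between replicates was small for most of these genes and large for a few. The SD of the log2 level within groups had a median of 0.07 over the 76 genes, against 0.10 over all tested genes, and it was at most 0.1 for 57 of the 76. It exceeded 0.2 for 6 genes: Rps27a (0.72), Rpl21 (0.63), Rpl17 (0.61), Rpl7a (0.33), Rpl13 (0.30) and Rpl30 (0.22). Rps27a, whose product is a fusion of ubiquitin with a small subunit protein, shows how large this can be. It stood at 119, 109.7 and 116 CPM in untreated shSdc1 cells, against 346, 97.5 and 258 CPM in untreated shRFP cells. In cells given IFNγ its levels were 179.6, 76.8 and 262 CPM in the shSdc1 group, against 195, 165 and 91.8 CPM in the shRFP group. Replicates of one group differed by more than 3 times in Rps27a, and its groups overlapped.

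The first comparison, shSdc1 against shRFP cells in the presence of IFNγ, concerns the knockdown in cells exposed to the cytokine. Ribosomal protein genes of both subunits fell, and 0 rose. Of 45 large subunit genes 38 fell, with a median log2 fold change of -0.28 over the 45, and of 31 small subunit genes 27 fell, with a median of -0.27 over the 31 (edgeR quasi-likelihood test, adjusted p under 0.05 over all genes). Over all 14089 genes tested, 17.4% were lower and 18.9% higher (36.3% in either direction), with a median of 0.02. In percent, the medians correspond to a level 17.9% lower for the large and 16.9% lower for the small subunit. The 3 libraries of shSdc1 cells lay wholly below the 3 of shRFP cells for 37 large and 25 small subunit genes, against 21.8% of all genes tested. No called gene had a log2 fold change below -0.48, so the falls were broad across the genes and small in each.

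Rpl37a, a zinc-binding protein of the large subunit, had 137, 125 and 137 CPM in shSdc1 cells with IFNγ, against 199, 191 and 169 CPM in shRFP cells with IFNγ. The groups did not overlap, and the log2 fold change of -0.48 ± 0.06 (SE, edgeR adjusted p = 5.4e-06) was the lowest of the called genes. Rpl38, a large subunit protein known in mouse embryos for its part in the translation of Hox mRNAs, had 78.4, 73.5 and 76.1 CPM in shSdc1 cells with IFNγ, against 113, 116 and 84.5 CPM in shRFP cells with IFNγ. All 3 shSdc1 libraries were below the lowest shRFP library (log2 fold change -0.46 ± 0.10, edgeR adjusted p = 0.00092), and shRFP replicate 3 was the low one of its group. Rps28, a small subunit protein, had 68.1, 62.7 and 64.2 CPM in shSdc1 cells with IFNγ, against 103, 85.7 and 79.9 CPM in shRFP cells with IFNγ (log2 fold change -0.46 ± 0.10, edgeR adjusted p = 0.0016). Rpl36, of the large subunit, had 222, 223 and 218 CPM in shSdc1 cells with IFNγ, against 317, 299.9 and 294 CPM in shRFP cells with IFNγ. Its log2 fold change was -0.46 ± 0.06 (edgeR adjusted p = 4.3e-06), and its groups did not overlap.

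Of 11 genes whose products have a well known role besides the ribosome, 11 fell, beside 65 of all 76 ribosomal protein genes and 17.4% of all genes. Rpl11, whose protein binds MDM2 together with RPL5, had 329, 305 and 305 CPM in shSdc1 cells with IFNγ, against 378, 403 and 393 CPM in shRFP cells with IFNγ. The log2 fold changes were -0.32 ± 0.04 for Rpl11 and -0.28 ± 0.04 for Rpl5, both with groups that did not overlap (edgeR adjusted p = 5.6e-06 and 6.4e-05). Rps6, the substrate by which S6 kinase activity is commonly read, had 633, 626 and 632 CPM in shSdc1 cells with IFNγ, against 719, 778 and 732 CPM in shRFP cells with IFNγ. It fell by 0.24 on the log2 scale (edgeR adjusted p = 2.8e-05), and its groups did not overlap. Rpl22, a protein that the ribosome can do without and that acts in T cell development, had a log2 fold change of -0.28 ± 0.04, and Rps25, needed for some internal ribosome entry sites, of -0.40 ± 0.05 (edgeR adjusted p = 1.6e-05 and 7.2e-06). Rps3, which also acts in DNA repair, changed by -0.29. Rps19, mutated in Diamond-Blackfan anaemia, changed by -0.27. Rplp0, of the stalk base, changed by -0.21, and Rpsa, also known as the laminin receptor, by -0.15. These 4 passed the test too (edgeR adjusted p = 6.8e-05, 0.00013, 0.00013 and 0.0059), although the Rpsa libraries of the 2 groups came close, at 1643, 1560.0 and 1522 CPM in shSdc1 cells and 1668, 1796 and 1765 CPM in shRFP cells.

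Rpl13a is of separate interest in IFNγ-treated cells, because in monocytes its protein is known to leave the ribosome after IFNγ and to silence a set of inflammatory mRNAs. It had 9.07, 7.21 and 7.93 CPM in shSdc1 cells with IFNγ, against 10.3, 12.6 and 9.65 CPM in shRFP cells with IFNγ, low levels for a ribosomal protein gene. The log2 fold change was -0.42 ± 0.12 (edgeR adjusted p = 0.012). The call ended without shRFP IFNγ replicate 2 (-0.31, edgeR adjusted p = 0.078) and without shSdc1 IFNγ replicate 2 (-0.35, edgeR adjusted p = 0.059).

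**Figure D2:**
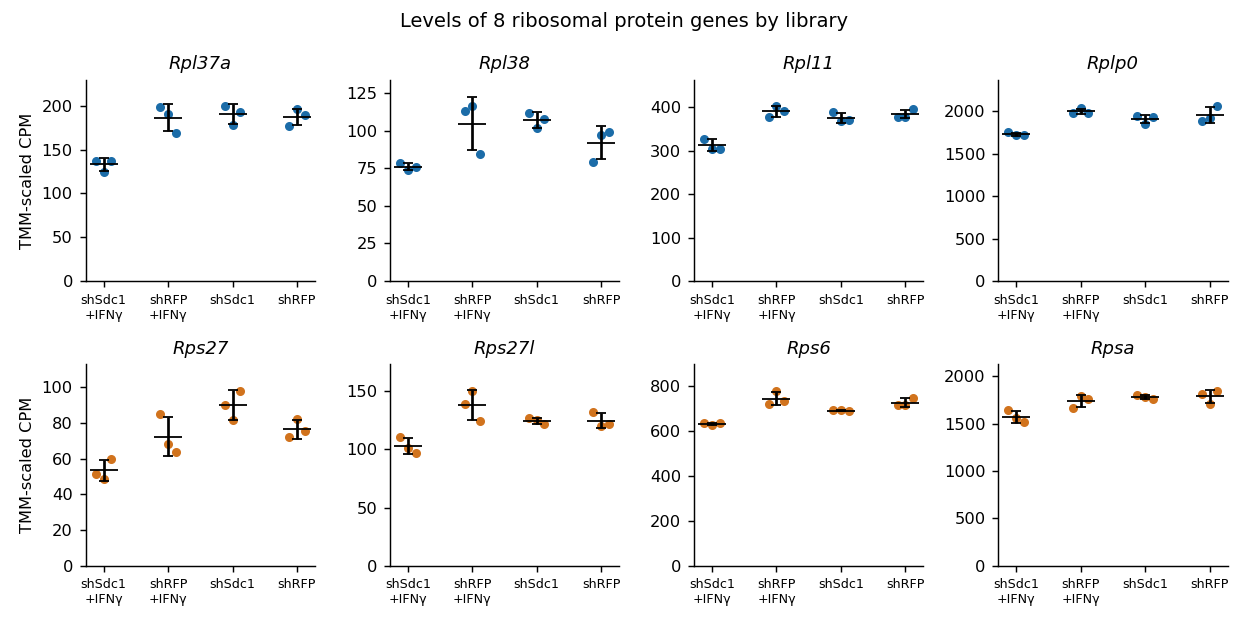
TMM-scaled CPM of 4 large subunit genes (top row) and 4 small subunit genes (bottom row) in each library, with the mean as a bar and the SD as a whisker (n = 3 per group). In all 8 genes the 3 libraries of shSdc1 cells with IFNγ lie below the 3 of shRFP cells with IFNγ.

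Of the paralogs that are not the usual copy, Rps27l was the one tested, and it fell, as did Rps27. Rps27l, a small subunit paralog that p53 induces in human cells, had 110.3, 101 and 96.9 CPM in shSdc1 cells with IFNγ, against 139, 150.3 and 125 CPM in shRFP cells with IFNγ. Its usual copy Rps27 had 51.4, 48.7 and 60.04 CPM in shSdc1 cells with IFNγ, against 84.7, 68.2 and 63.8 CPM in shRFP cells with IFNγ. The log2 fold changes were -0.42 ± 0.06 for Rps27l and -0.44 ± 0.10 for Rps27, and neither gene's groups overlapped (edgeR adjusted p = 3.5e-05 and 0.0015). Of the usual copies of the paralogs without counts, Rpl39 (log2 fold change -0.35 ± 0.05) and Rpl10 (-0.24 ± 0.04) fell (edgeR adjusted p = 3.8e-05 and 5.6e-05), and so did Rps4x, the X-linked gene, at -0.26 ± 0.05 (edgeR adjusted p = 0.00025). Rpl3 had a log2 fold change of -0.10 ± 0.04 and was not called (edgeR adjusted p = 0.086).

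The genes that were not called with IFNγ numbered 11 and included Rpl3, Rpl7a, Rpl12, Rpl13, Rpl17, Rpl21, Rpl23a, Rps2, Rps10 and Rps27a. Of the 11, 5 were among the 6 genes with the largest replicate spread, and 4 had over 20% of counts at pseudogene copies. Their log2 fold changes ran from -0.68 for Rpl21 to 0.19 for Rps27a (SE 0.33 and 0.37). Rpl21 had 41.8, 26.5 and 16.4 CPM in shSdc1 cells with IFNγ, against 38.4, 41.2 and 57.8 CPM in shRFP cells with IFNγ, and its groups overlapped.

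**Figure D3:**
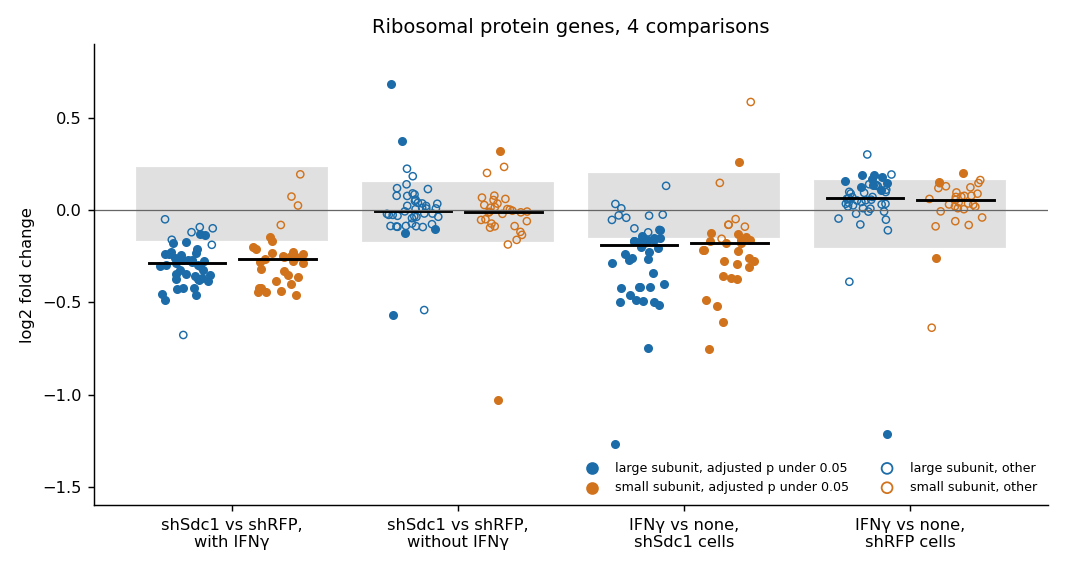
Log2 fold change of each of the 76 tested genes in 4 comparisons, large subunit in blue and small subunit in orange; filled points passed the test at an adjusted p under 0.05, black lines are medians, and grey boxes span the quartiles of all 14089 genes tested. The medians lie at -0.28 and -0.27 for shSdc1 against shRFP cells with IFNγ, below the grey box, and near 0 for the same comparison without IFNγ.

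Without IFNγ, the same comparison concerns the knockdown in untreated cells, and few ribosomal protein genes were called. Of 45 large subunit genes 2 rose and 3 fell (median log2 fold change -0.01), and of 31 small subunit genes 1 rose and 1 fell, with a median of -0.01. Over all genes tested, 14.0% were higher and 14.6% lower, with a median of 0.00, so the called share of ribosomal protein genes, 7 of 76, lay below the 28.6% called in either direction. Among the 76, 21 had an unadjusted p under 0.05, or 27.6%, against 38% of all genes. Without shRFP replicate 1 or without shSdc1 replicate 1 the large subunit had 0 genes higher, and without shRFP IFNγ replicate 2 it had 5. The number lower in the large subunit was 1 without shRFP replicate 3 and 0 without shSdc1 replicate 1 or 2.

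Of the 7 called genes, Rpl7a, Rpl13 and Rps27a were among the 6 with the largest replicate spread. Rpl7a, of the large subunit, had 630.0, 331 and 356 CPM in shSdc1 cells, against 228, 287 and 306 CPM in shRFP cells. Its log2 fold change of 0.68 ± 0.18 (edgeR adjusted p = 0.0088) rested on shSdc1 replicate 1, without which it was 0.33 (edgeR adjusted p = 0.092), and it was 0.57 without shRFP replicate 1 (edgeR adjusted p = 0.057). Rps27a (log2 fold change -1.03 ± 0.37, edgeR adjusted p = 0.047) lost its call without shRFP replicate 1 (-0.63, edgeR adjusted p = 0.28) and without any of 5 other libraries. Rpl13 had 349, 325 and 445 CPM in shSdc1 cells, against 647, 476 and 537 CPM in shRFP cells (log2 fold change -0.57 ± 0.17, edgeR adjusted p = 0.017), and its call ended without shRFP replicate 1, shSdc1 replicate 1 or shSdc1 replicate 2 (-0.44, -0.52 and -0.48). Rps21, of the small subunit, was the steadier case. It had 113, 102 and 92.1 CPM in shSdc1 cells, against 82.3, 77.9 and 86.2 CPM in shRFP cells, groups that did not overlap, and a log2 fold change of 0.32 ± 0.07 (edgeR adjusted p = 0.0014) that passed under all alternatives run.

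The other 3 called genes were of the large subunit. Rpl13a had 11.9, 11.4 and 11 CPM in shSdc1 cells, against 8.30, 9.02 and 9.19 CPM in shRFP cells (log2 fold change 0.38 ± 0.12, edgeR adjusted p = 0.025), a call that ended without shRFP replicate 1, shSdc1 replicate 1 or shSdc1 replicate 2 (0.33, 0.34 and 0.38). Its direction was opposite to that with IFNγ. Rpl5 and Rpl4, which encodes a protein that lines the exit tunnel, had log2 fold changes of -0.12 ± 0.04 and -0.10 ± 0.04 (edgeR adjusted p = 0.045 and 0.034). Leaving out single libraries ended both calls, with adjusted p-values up to 0.18 for Rpl5 and 0.12 for Rpl4 (edgeR). The other genes named here were not called without IFNγ, such as Rpl37a (0.02), Rpl11 (-0.03), Rps6 (-0.07) and Rps27l (-0.00).

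IFNγ against no IFNγ in shSdc1 cells asks how the knockdown cells responded to the cytokine, and it shares its libraries with both comparisons above. Of 45 large subunit genes 34 fell and 0 rose (median log2 fold change -0.19), and of 31 small subunit genes 23 fell and 1 rose, with a median of -0.18. Over all genes tested, 13.0% were lower and 17.5% higher (30.5% in either direction), with a median of 0.00. With upper-quartile scaling, all genes gave 2047 higher and 2495 lower in place of 2469 and 1826. Groups did not overlap, with the IFNγ libraries lower, for 37 large and 24 small subunit genes, against 21.2% of all genes.

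Rps27 had 51.4, 48.7 and 60.04 CPM in shSdc1 cells with IFNγ, against 90.2, 81.4 and 98.05 CPM without it. The lowest value without IFNγ was above the highest with it, and the log2 fold change was -0.76 ± 0.10 (edgeR adjusted p = 5.2e-06). Rps29, a zinc-binding small subunit protein, had 67.8, 62.4 and 73.8 CPM in shSdc1 cells with IFNγ, against 104, 92.6 and 113 CPM without it (log2 fold change -0.60 ± 0.10, edgeR adjusted p = 7e-05). Rps19 fell by 0.36 (SE 0.05), Rpl11 by 0.27 (SE 0.04) and Rps3 by 0.22 (SE 0.05) on the log2 scale (edgeR adjusted p = 5.3e-06, 6e-05 and 0.001).

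Rpl17 had the lowest log2 fold change of this comparison at -1.27 ± 0.33 (edgeR adjusted p = 0.0059). It had 77.95, 45.1 and 53.4 CPM in shSdc1 cells with IFNγ, against 173, 187 and 66.8 CPM without it, with shSdc1 replicate 3 far below the others of its group. With the counts of its near-identical pseudogene copies added, the log2 fold change was -0.24 (edgeR adjusted p = 0.00079). Rpl7a fell by 0.75 (SE 0.18, edgeR adjusted p = 0.0045), and the value again included the high shSdc1 replicate 1.

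IFNγ against no IFNγ in shRFP cells asks the same of the control cells, and here the ribosomal protein genes lay near their untreated levels. Of 45 large subunit genes 9 rose and 1 fell (median log2 fold change 0.06), and of 31 small subunit genes 2 rose and 1 fell, with a median of 0.06. Over all genes tested, 17.2% were higher and 14.4% lower (31.6% in either direction), with a median of -0.01. Groups did not overlap, with the IFNγ libraries higher, for 11 large and 3 small subunit genes, against 21.7% of all genes, and with the IFNγ libraries lower for 0 genes, against 19.7%. With upper-quartile scaling the counts were 2 higher and 3 lower for the large subunit and 1 higher and 2 lower for the small, and over all genes 1759 higher and 2811 lower in place of 2422 and 2024. Without shRFP replicate 1 or 2 the large subunit had 3 or 4 genes higher, and without shRFP IFNγ replicate 3 it had 14 and the small subunit 8. The split of calls in this comparison therefore moved with the scaling and with single libraries.

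Among large subunit genes, the highest called log2 fold changes in shRFP cells were those of Rpl28 (0.19 ± 0.05), Rpl27 (0.19 ± 0.06) and Rpl7 (0.18 ± 0.04) (edgeR adjusted p = 0.0036, 0.023 and 0.0031). Rpl28 had 338, 360.1 and 338 CPM in shRFP cells with IFNγ, against 287, 301 and 321 CPM without it. Its groups did not overlap, while the call of Rpl27 ended without shRFP replicate 1 or 2 or shRFP IFNγ replicate 2. Rps2, of the small subunit, had 950.5, 1027 and 1276 CPM in shRFP cells with IFNγ, against 1419, 1205 and 1274 CPM without it. These overlapped, and the fall of 0.26 on the log2 scale (SE 0.08, edgeR adjusted p = 0.019) was not called without shRFP replicate 1, shRFP IFNγ replicate 1 or shRFP IFNγ replicate 2 (-0.19, -0.17 and -0.22). Rpl17 had 60.6, 79.6 and 48.2 CPM in shRFP cells with IFNγ, against 173, 188 and 75.3 CPM without it (log2 fold change -1.21 ± 0.33, edgeR adjusted p = 0.008). With the counts of its pseudogene copies added it was -0.02 and not called (edgeR adjusted p = 0.77).

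The interaction term tests whether the effect of the knockdown differed between cells with and without IFNγ. A negative value means that the log2 fold change of shSdc1 against shRFP cells was lower with IFNγ than without it. The term was below 0 and past the threshold for 30 of 45 large subunit genes, with a median of -0.29, and for 23 of 31 small subunit genes, with a median of -0.25. Of terms above 0, 0 passed. Over all genes tested, 5.15% were lower and 4.58% higher (9.73% in either direction), with a median of 0.02. At an unadjusted p under 0.05 there were 67 of the 76 in either direction, or 88.2%, against 25.9% of all genes. The small subunit count was 15 without shSdc1 replicate 1 and also without shSdc1 IFNγ replicate 2. Of the 76 genes, 50 were called lower with IFNγ, not called without it, and had an interaction below 0 past the threshold, against 349 of all 14089 genes tested (2.48%). A further 11 were called lower with IFNγ, not called without it, and had an interaction that did not pass, against 834 of all genes (5.92%).

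Rpl38 had the interaction of -0.69 ± 0.13 (SE, edgeR adjusted p = 0.0039). Without IFNγ it had 112, 101 and 108 CPM in shSdc1 cells, against 79.1, 97.3 and 99.02 CPM in shRFP cells, with all 3 knockdown libraries higher, where with IFNγ all 3 were lower. Rps27 had an interaction of -0.67 ± 0.13 and Rpl39 of -0.49 ± 0.07 (edgeR adjusted p = 0.0042 and 0.00051), and both had positive log2 fold changes without IFNγ, 0.23 and 0.14, that were not called. Rpl7a (-0.84 ± 0.26, edgeR adjusted p = 0.048) and Rpl13a (-0.80 ± 0.17, edgeR adjusted p = 0.0073) had the lowest terms. That of Rpl7a was -0.49 and not called without shSdc1 replicate 1 (edgeR adjusted p = 0.12). For Rpl5, Rpl10, Rpl3 and Rpsa the term did not pass (-0.16, -0.15, -0.18 and -0.14; edgeR adjusted p = 0.12, 0.074, 0.075 and 0.12).

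The size of the change was graded by the length of the coding sequence, a split chosen after the values were seen. The 9 genes of at most 300 bp (Rpl37, Rpl37a, Rpl38, Rpl39, Rpl41, Rps21, Rps27, Rps28 and Rps29) had a median log2 fold change of -0.42 between shSdc1 and shRFP cells with IFNγ, with values from -0.48 to -0.32, and all 9 were called. The 45 genes of over 300 and up to 600 bp had a median of -0.30, and the 22 longer ones of -0.23. Without IFNγ the order was the other way round. The 9 short genes had a median of 0.14, with all 9 above 0 and 1 called, and the 2 longer classes had medians of -0.02 and -0.03. For the interaction the medians were -0.54, -0.29 and -0.17 from short to long. Spearman's rho between coding length and log2 fold change was 0.64 with IFNγ and -0.42 without it over the 76 genes, which share their libraries and whose lengths go with the length of the transcript.

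With IFNγ a weaker relation of the same sign was present over all genes. Over the 11685 tested genes with a coding length, the 76 included, rho was 0.21 with IFNγ and 0.05 without it. For IFNγ against none, rho over those genes was 0.02 in shSdc1 cells and -0.15 in shRFP cells. Over the 76 ribosomal protein genes it was 0.58 in shSdc1 cells and -0.05 in shRFP cells. Genes outside both the ribosomal protein list and the list of respiratory chain subunits with at most 300 bp of coding sequence had a median log2 fold change of -0.13 with IFNγ, and 27.6% of these 181 genes were lower. For the 2629 such genes over 2400 bp the median was 0.09 and 13.7% were lower. In each class of length that held at least 20 ribosomal protein genes, a larger share of them was lower than of genes outside those 2 lists: 84.4% against 26.8% up to 600 bp and 85% against 21.5% from there up to 1200 bp. That difference was not tested, and neither was the part of transcript length in the result.

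**Figure D4:**
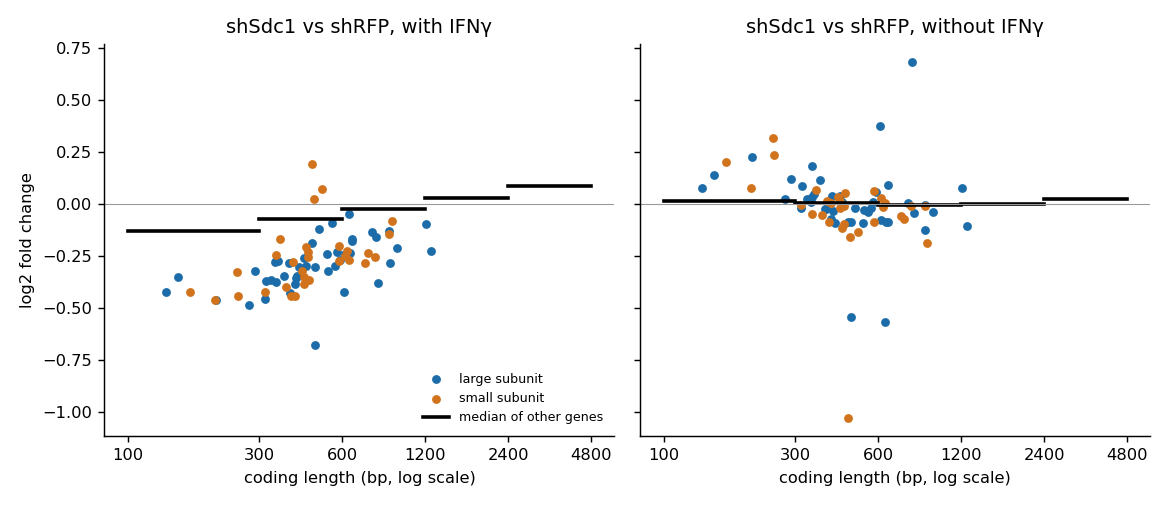
Log2 fold change of shSdc1 against shRFP cells with IFNγ (left) and without it (right) against coding length on a log axis, for the 76 tested ribosomal protein genes (points); black lines are medians, by class of length, of tested genes outside the ribosomal protein and respiratory chain lists. With IFNγ the 9 genes of at most 300 bp lie between -0.48 and -0.32, and the line for those other genes climbs from -0.13 to 0.09.

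Other genes of translation were read from lists chosen with earlier results of these data known. Ribosome components whose symbols fall outside the form used here included Rack1, the scaffold protein of the small subunit, which fell by 0.28 (SE 0.04) between shSdc1 and shRFP cells with IFNγ (edgeR adjusted p = 5.1e-05), Fau (-0.26 ± 0.04, edgeR adjusted p = 7.8e-05) and Rps3a1 (-0.22 ± 0.04, edgeR adjusted p = 0.00011). In all 4 of 7 fell and 0 rose, with a median of -0.22, and the fourth was the paralog Rpl7l1 (-0.41). Without IFNγ 2 of the 7 fell, Rpl7l1 (-0.31) and Rack1 (-0.16), with a median of -0.06 (edgeR adjusted p = 0.00013 and 0.011). Of 8 genes listed as elongation factors 7 fell and 0 rose with IFNγ, with a median of -0.22, and 2 fell and 0 rose without it, with a median of -0.06. They included Eef1a1, which delivers aminoacyl-tRNA (-0.24 ± 0.03), Eef1b2, its exchange factor (-0.27 ± 0.05), and Eef2, which drives translocation (-0.09 ± 0.03; edgeR adjusted p = 7.5e-06, 0.00013 and 0.024). The lowest of that list was Eef1e1 at -1.41 ± 0.05, whose product is a part of the tRNA synthetase complex and not itself an elongation factor, and it stood at -1.30 ± 0.05 without IFNγ (edgeR adjusted p = 4.2e-13 and 2.1e-12). Eef1a1 was the other of these called without IFNγ (-0.10 ± 0.03, edgeR adjusted p = 0.02). Several of these genes, such as Eef1a1, Eef1b2, Eef2, Rack1 and Fau, are also known to carry TOP tracts.

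Counts for the lists that follow stand beside 18.9% of all genes higher and 17.4% lower with IFNγ, and 14.0% higher and 14.6% lower without it. Of 62 ribosome biogenesis factors 19 rose and 8 fell in shSdc1 against shRFP cells with IFNγ, with a median of 0.04, and 35 rose and 4 fell without IFNγ, with a median of 0.14. Snu13 (-0.64 ± 0.04) and Nop10 (-0.50 ± 0.07), small proteins of the box C/D and box H/ACA particles that modify ribosomal RNA, fell with IFNγ (edgeR adjusted p = 1.3e-09 and 2.9e-05), while Utp20 (0.44 ± 0.05) and Pno1 (0.43 ± 0.07), which act in small subunit assembly, rose without it (edgeR adjusted p = 8.8e-07 and 5.6e-05). Of 11 genes for RNA polymerase I and its factors 2 rose and 0 fell with IFNγ, a share near that of all genes, and 5 rose and 0 fell without it. Taf1d, a subunit of the factor that selects the ribosomal RNA gene promoter, was the highest with IFNγ (0.33 ± 0.06, edgeR adjusted p = 0.00026). Of 35 initiation factors 3 rose and 9 fell with IFNγ, with a median of -0.04, and 13 rose and 3 fell without it, with a median of 0.09. Eif2b5 (-0.23 ± 0.06) and Eif3f (-0.23 ± 0.06), subunits of EIF2B and EIF3, were the lowest with IFNγ (edgeR adjusted p = 0.0037 and 0.0088).

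Of 26 tested regulators of ribosome production and translation 2 rose and 5 fell in shSdc1 against shRFP cells with IFNγ, with a median of -0.03 and a share lower near that of all genes, and 3 rose and 10 fell without it, with a median of -0.08. Myc rose without IFNγ (0.21 ± 0.05, edgeR adjusted p = 0.0019) and stood at 0.11 ± 0.05 with it (edgeR adjusted p = 0.078). Mtor (0.10 ± 0.05) and Larp1 (-0.08 ± 0.04) were not called with IFNγ (edgeR adjusted p = 0.11 and 0.12). Eif4ebp1, whose product holds back the cap-binding factor EIF4E, fell by 0.90 without IFNγ (SE 0.08, edgeR adjusted p = 6.3e-08) and stood at -0.18 ± 0.08 with it (edgeR adjusted p = 0.097). Eef2k, the kinase that inhibits EEF2, fell by 0.77 with IFNγ and by 1.16 without it (SE 0.06 and 0.05, edgeR adjusted p = 4.5e-09 and 7.4e-12). Eif2ak2, the interferon-induced kinase PKR that halts initiation, rose by 0.59 with IFNγ (SE 0.06, edgeR adjusted p = 1.8e-07).

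Nuclear genes for proteins of the mitochondrion also gave many falls. Of 61 nuclear genes for respiratory chain subunits 51 fell and 0 rose in shSdc1 against shRFP cells with IFNγ, with a median of -0.26, and 11 fell and 3 rose without it, with a median of -0.03. Examples were Ndufb3 (-0.43 ± 0.06) and Ndufb4 (-0.42 ± 0.07) of complex I (edgeR adjusted p = 2.9e-05 and 0.00022). Within that list the change was not graded by coding length with IFNγ (Spearman's rho -0.04 over 61 genes). In the other comparisons its rho was -0.32 for the knockdown without IFNγ and 0.29 for the interaction. For IFNγ against none it was 0.40 in shSdc1 cells and 0.18 in shRFP cells. Of 78 genes for mitochondrial ribosomal proteins 38 fell and 2 rose with IFNγ, with a median of -0.19, and 6 fell and 13 rose without it, with a median of -0.01. Mrpl33 (0.98 ± 0.10) and Mrps6 (-0.54 ± 0.09) were the highest and the lowest of these (edgeR adjusted p = 4.1e-07 and 8.5e-05). No difference between these lists and the cytosolic ribosomal protein genes was tested. The mitochondrial genome itself took 2.20 to 2.31% of counts in shSdc1 cells with IFNγ and 2.09 to 2.25% in shRFP cells with IFNγ, ranges that overlap.

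**Figure D5:**
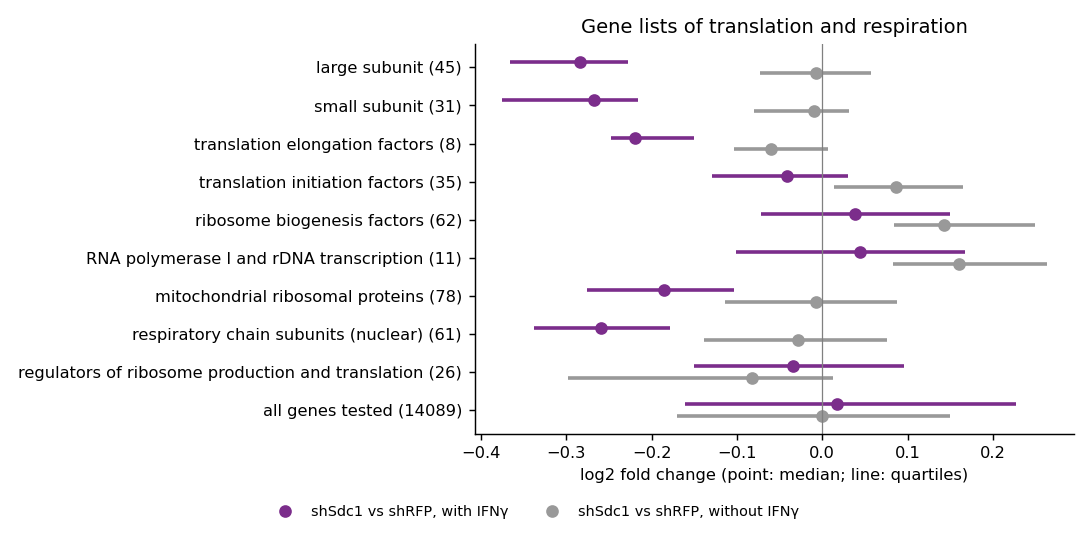
Median log2 fold change (point) and quartiles (line) of gene lists of translation and respiration, with the number of tested genes in brackets, for shSdc1 against shRFP cells with IFNγ (purple) and without it (grey). With IFNγ the medians of the large and small subunit (-0.28 and -0.27) and of respiratory chain subunits (-0.26) lie lowest, while ribosome biogenesis factors are at 0.04.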

How the data were processed

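The members and gene lists were chosen with earlier results of these data known. The authors deposited raw gene counts of 12 libraries. GRCm39, HTSeq, HISAT2 2.0.5 and Trimmomatic are named in the submitters' processing notes. The sources used here do not give the annotation, the strand setting or how reads with several matches were handled. Symbols, gene types and coding lengths came from GENCODE M21 (GRCm38), which named 52083 of 56093 rows. Counts were TMM-scaled and filtered with filterByExpr (minimum count 10, minimum total 15), leaving 14089 genes. edgeR 4.0.16 (R 4.3.3) fitted 1 coefficient per group (8 residual degrees of freedom; common coefficient of biological variation 0.0633). Two-sided quasi-likelihood p-values were adjusted over all 14089 genes by Benjamini-Hochberg at 0.05. SE is the log2 fold change over the square root of F. Levels are TMM-scaled CPM; the log2 SD within groups used a pseudocount of 0.5 CPM, and lengths per kb are those of the transcript. Pseudogene copies were matched with BLAST 2.17.0. Named genes were the 4 highest and 4 lowest called members of at least 5 CPM per comparison (3 and 3 for the interaction), known paralogs and members with other roles, 2 genes per list, and Myc, Mtor, Larp1, Eif4ebp1, Eef2 and Rack1; others were picked after their values were seen, and some genes that meet the rule are not reported here. Alternatives, including DESeq2 1.42.0 and limma 3.58.1, are given in the closing section, and the steps were tested on simulated data.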

Additional observations from a re-analysis of the deposited data

Results flagged for a closer look

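These results met a rule that picks effects of the knockdown that differed between cells with and without IFNγ by a test of the difference itself, the interaction term of the edgeR fit at an adjusted p under 0.05. They were 30 of 45 large subunit genes and 23 of 31 small subunit genes with a term below 0, against 5.15% of all genes tested. Among genes named in the text the log2 terms for the large subunit included -0.84 for Rpl7a, -0.80 for Rpl13a, -0.69 for Rpl38, -0.49 for Rpl39, -0.29 for Rpl11, -0.26 for Rpl22 and -0.17 for Rplp0. For the small subunit they included -0.67 for Rps27, -0.42 for Rps27l, -0.34 for Rps25, -0.27 for Rps19, -0.25 for Rps4x, -0.23 for Rps3 and -0.16 for Rps6. The terms of Rpl7a, Rplp0, Rps3, Rps4x and Rps6 did not pass under some alternatives, and the highest adjusted p over the alternatives was 0.14 for Rpl7a, 0.098 for Rplp0, 0.086 for Rps3, 0.071 for Rps4x and 0.10 for Rps6. Other genes named in the text met the rule too. They included Rps21 (-0.65), Rps29 (-0.63), Rps28 (-0.54), Rpl37a (-0.51), Rpl36 (-0.44), Rpl27 (-0.39), Rpl7 (-0.34) and Rpl28 (-0.31). The interaction terms of those genes were not followed through the alternatives.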

How the results depend on the processing

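The falls of ribosomal protein genes in shSdc1 against shRFP cells with IFNγ held under every alternative run: 37 to 42 large and 26 to 28 small subunit genes were lower, with medians of -0.30 to -0.27 and -0.28 to -0.25, and without single libraries 35 to 39 and 25 to 27. Of the named ribosomal protein genes followed through the alternatives, 0 changed direction past the threshold. Counts, medians and shares were compared by size alone. The exceptions below are counts of genes, and their causes were not tested. Without a filter on low counts, 1 small subunit gene was higher with IFNγ; without IFNγ 3 small were higher and 2 lower; in shRFP cells IFNγ gave 2 large lower, 8 small higher and 2 small lower; in shSdc1 cells 1 large and 2 small higher; and the interaction 1 large and 1 small higher. With upper-quartile scaling IFNγ in shRFP cells gave 2 large higher and 3 lower (median 0.012), and 1 small higher and 2 lower (median 0.0022). The DESeq2 Wald test gave 1 large and 0 small lower without IFNγ, and 5 small higher and 0 lower for IFNγ in shRFP cells; limma-voom gave 0 small lower without IFNγ, and 2 large lower and 5 small higher for IFNγ in shRFP cells. With the compared groups fitted alone, 5 large were higher and 5 lower, and 2 small higher and 6 lower, without IFNγ, and 3 large and 1 small were higher for IFNγ in shRFP cells; this fit gives no interaction. With named pseudogenes added, 2 small were lower without IFNγ and 0 large lower for IFNγ in shRFP cells; with near-identical copies added, 4 large were higher, 5 large lower and 3 small lower without IFNγ. The ratio of shares for IFNγ in shRFP cells was 1.03 from summed TMM-scaled CPM, in place of 0.986. The replicate number as a block gave 1 large and 0 small lower without IFNγ and 2 large lower for IFNγ in shRFP cells, and 25 large and 18 small lower for the interaction; the labels do not say that a number marks a shared culture, and deviations of same-numbered libraries from their group means had correlations of -0.07 to 0.03.

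Leaving out 1 library at a time, the counts without IFNγ ran from 0 to 5 large higher and 0 to 3 lower, and 1 to 2 small higher and 0 to 3 lower; with IFNγ 0 to 1 large were higher; for IFNγ in shRFP cells 3 to 14 large higher and 1 to 2 lower, and 1 to 8 small higher and 0 to 2 lower; for IFNγ in shSdc1 cells 27 to 37 large and 20 to 25 small lower and 0 to 1 small higher; and for the interaction 24 to 34 large and 15 to 24 small lower, with 0 to 1 higher in each. Rpl24, Rpl3l, Rpl10l and Rpl39l had too few counts to pass the filter, and no test was made for them.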
